A study of Homo sapiens with 6 samples.

Results

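Dual specificity phosphatases of the MAP kinase type are the enzymes that switch MAP kinases off, and 9 of their genes, DUSP1, DUSP2, DUSP4, DUSP5, DUSP6, DUSP7, DUSP8, DUSP10 and DUSP16, were chosen by name and not by a threshold on their values. The choice was made with earlier results of these data known. The table held values for 6 of the 9 among its 11911 genes, and all 6 entered the test. DUSP4, DUSP5 and DUSP8 were not analysed here. RNA was sequenced from RS4;11, an established human line from a B-cell precursor leukemia with the KMT2A::AFF1 fusion. There were 3 libraries of asparagine-depleted cells and 3 of cells with asparagine, and the series puts RNA collection at 16 hours after the amino acid was withdrawn. All 6 samples are 1 line, for which the labels name no engineered allele, though the columns of both arms carry a prefix for control whose meaning is not stated. The labels enter 1 treatment medium for every sample, free of asparagine and with dialyzed serum, so how the cells with asparagine received it is not stated. Columns of the depleted arm carry an abbreviation that may stand for asparaginase, while the titles give only the absence of the amino acid.

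MAP kinases carry signals from growth factor receptors and from stress to the nucleus. They act when both a threonine and a tyrosine of their activation loop carry phosphate, and a dual specificity phosphatase removes both groups. The ERK kinases answer mostly to growth signals, and the JNK and p38 kinases to stress. The phosphatases differ in where they sit in the cell and which kinase they prefer, and several are themselves transcribed in answer to the kinase they act on, which makes a feedback loop.

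Between 29971364 and 51127073 reads stood behind the values of a library. Of 15 markers of B-cell precursors, 14 had values. They summed to 3372 to 4262 CPM (read counts as scaled by the authors) in depleted libraries and 4372 to 4641 CPM with asparagine. The lymphoid enzyme gene DNTT was low, with means of 1.66 CPM in depleted libraries and 3.61 CPM with asparagine. Of the markers of other lineages, 1 of 11 for T cells (LCK, 48.9 to 88.5 CPM in depleted libraries and 92.1 to 102 CPM with asparagine), 2 of 11 for myeloid cells, 0 of 8 for erythroid cells and 2 of 9 for stromal or epithelial cells had values. The myeloid pair summed to 17.5 to 31.0 CPM in depleted libraries and 32.1 to 33.3 CPM with asparagine, and the stromal pair to 36.0 to 48.4 CPM in depleted libraries and 65.7 to 76.3 CPM with asparagine. The part of these differences in the results was not tested. Within the depleted group, library 1 differed from the others. Its log2 values over all genes (genes are no replicates) correlated with those of libraries 2 and 3 at Pearson's r of 0.940 and 0.933, against 0.996 between those 2 and at least 0.992 among the libraries with asparagine. The gap followed the GC content of the transcripts. In the GC class of DUSP2 and DUSP7, the highest of 5, the median gene lay at -0.09, -0.86 and -0.89 log2 units in depleted libraries 1, 2 and 3 relative to the mean with asparagine. In that of DUSP10 and DUSP16, the second lowest, it lay at 0.06, 0.43 and 0.44. Changes of the phosphatase genes and of the genes named from pathway lists are therefore also given after a correction for GC content.

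The phosphatase genes moved in both directions after asparagine was withdrawn. The genes of the stress kinase phosphatases, DUSP16 and DUSP10, rose 9.79-fold and 5.69-fold. DUSP2, a nuclear phosphatase gene of blood cells, was 7.46-fold lower, and DUSP7, for a cytoplasmic ERK phosphatase, was 1.99-fold lower. DUSP1 and DUSP6 did not pass the test. The count was 2 higher and 2 lower of 6 (limma, Benjamini-Hochberg adjusted p under 0.05 over all genes tested), against 25.1% of the 11892 genes tested that were higher and 26.2% that were lower. In either direction the 4 of 6 stand beside 51.3% of all genes, and the 4 whose groups did not overlap stand beside 61.1%, so both shares are near those of all genes. The phosphatase genes were chosen with earlier results of these data known, so comparisons of their sizes of change are a description and no test. The median absolute log2 fold change was 1.65 over the 6 and 0.57 over all genes tested. A log2 fold change of at least 2 in size with an adjusted p under 0.05 was reached by 3 of the 6 and by 2.6% of all genes. The limit of 2 was picked after the values were seen. All directions depend on how the libraries were scaled, and the total RNA of a cell was not measured. The libraries are of bulk RNA, so fewer cells with a transcript and less of it per cell cannot be told apart.

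**Figure D1:**
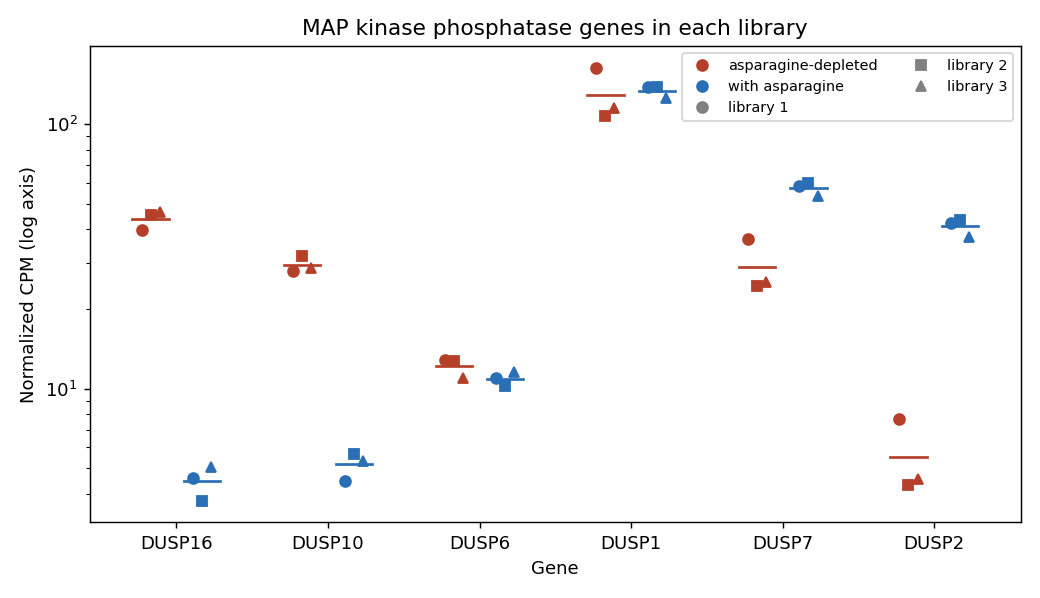
Normalized CPM on a log axis for the 6 phosphatase genes, with asparagine-depleted libraries (red) left of libraries with asparagine (blue), marker shapes for libraries 1 to 3 and bars for the group means. DUSP16 and DUSP10 lie higher and DUSP7 and DUSP2 lower in all 3 depleted libraries, while the groups of DUSP6 and DUSP1 overlap.

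DUSP16 encodes a phosphatase that acts on JNK and p38 (chromosome 12, 12474210 to 12562383, minus strand, GRCh38). It had 39.8, 45.2 and 46.4 CPM in depleted libraries 1, 2 and 3, against 4.61, 3.78 and 5.04 CPM in libraries 1, 2 and 3 with asparagine. Each depleted library lay far above each library with asparagine, and the 3 depleted libraries lay close together. The means were 43.8 ± 3.53 CPM in depleted cells and 4.48 ± 0.643 CPM with asparagine (SD, n = 3 each), and the log2 fold change was 3.04 with an SE of 0.15 (adjusted p = 5.56e-05). Reads behind these values numbered 137 to 1730 per library. Of all genes tested, DUSP16 had the 46th largest increase. With the GC correction the log2 fold change was 2.77 (adjusted p = 1.09e-06).

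DUSP10, for a phosphatase that also acts on JNK and p38 (chromosome 1, 221701424 to 221742176, minus strand), was the other gene that rose. It had 28.0, 31.8 and 28.6 CPM in depleted libraries 1, 2 and 3, against 4.50, 5.68 and 5.34 CPM with asparagine. No depleted value came near the range with asparagine, and depleted library 1 did not stand apart. Means were 29.5 ± 2.07 CPM in depleted cells and 5.17 ± 0.608 CPM with asparagine (SD, n = 3 each), which differ by 2.31 on the log2 scale with an SE of 0.14 (adjusted p = 0.000125), the 114th largest increase. Corrected for GC content, the change was 2.06 (adjusted p = 6.38e-06).

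The promoter windows of the genes that rose are shown because both genes rose. The windows run from 250 bases before to 50 after the transcript start that RefSeq gives on GRCh38.p14, 5′ to 3′ on the gene's own strand, and entries matched all 6 genes. DUSP10 has 2 windows, at chr1:221742040-221742339 (start A) and chr1:221736851-221737150 (start B), and that of DUSP16 is at chr12:12562814-12563113. Gene counts do not tell the starts of DUSP10 apart. The motifs searched, on both strands, were the full cyclic AMP response element TGACGTCA, its short form TGACG (which lies inside the full one), the amino acid response motif of C/EBP and ATF factors TGATGNAA, the AP-1 motif TGANTCA and the CArG box of serum response factor. Capitals mark matches.
DUSP16: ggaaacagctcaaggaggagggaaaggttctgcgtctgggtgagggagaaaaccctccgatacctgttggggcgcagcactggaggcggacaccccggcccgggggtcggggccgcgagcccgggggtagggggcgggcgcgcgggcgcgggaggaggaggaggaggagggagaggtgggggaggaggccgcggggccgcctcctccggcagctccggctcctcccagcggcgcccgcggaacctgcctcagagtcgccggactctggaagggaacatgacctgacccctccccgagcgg
DUSP10, start A: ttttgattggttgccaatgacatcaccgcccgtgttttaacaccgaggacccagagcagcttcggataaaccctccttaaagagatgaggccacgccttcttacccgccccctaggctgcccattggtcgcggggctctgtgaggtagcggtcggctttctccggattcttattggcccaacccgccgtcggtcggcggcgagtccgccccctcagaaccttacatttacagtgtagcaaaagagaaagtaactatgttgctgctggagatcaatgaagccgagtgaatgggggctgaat
DUSP10, start B: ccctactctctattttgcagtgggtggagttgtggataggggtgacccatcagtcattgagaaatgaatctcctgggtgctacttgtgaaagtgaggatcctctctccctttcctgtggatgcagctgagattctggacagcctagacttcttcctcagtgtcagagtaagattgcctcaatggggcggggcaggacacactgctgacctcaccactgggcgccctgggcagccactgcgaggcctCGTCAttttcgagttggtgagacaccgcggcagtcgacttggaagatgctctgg

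DUSP16 and start A of DUSP10 held none of these letters in the window, and start B held 1 short element, at positions -4 to 0, where 0 is the first transcribed base. For DUSP16 the RefSeq start differs from the gene position given above, which is from GENCODE 29. Its window lies wholly upstream of the first base in GENCODE 29, at 12562383, so the surroundings of that start were not fully searched. Among 35116 windows of the same length, 24.6% held the short element, 1.85% the full one, 3.62% the amino acid response motif, 7.71% the AP-1 motif and 1.29% the CArG box. A match is a description of letters, and the lack of one says nothing of the factors. The windows were 73.3% G or C in DUSP16 and 55% at each start of DUSP10, beside a mean of 57.5% over all windows.

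DUSP1 and DUSP2 encode phosphatases of the nucleus. DUSP1, an immediate early gene whose product acts on p38, JNK and ERK (chromosome 5, 172768090 to 172771195, minus strand), had the highest level of the 6 genes per transcript length in both groups. It stood at 164, 108 and 115 CPM in depleted libraries 1, 2 and 3, against 138, 138 and 126 CPM with asparagine. Depleted library 1 lay above all libraries with asparagine, and depleted libraries 2 and 3 lay below them. Means were 129 ± 30.4 CPM in depleted cells and 134 ± 7.28 CPM with asparagine (SD, n = 3 each). On the log2 scale DUSP1 differed by -0.08 (95% interval -0.50 to 0.34, adjusted p = 0.723). The direction hung on library and correction. Without depleted library 1 the change was -0.26 (adjusted p = 0.0089), and the phosphatase genes were then 2 higher and 3 lower, against 40.5% and 41.3% of all genes and 81.8% in either direction. Corrected for GC content the change turned to 0.21 (adjusted p = 0.02), and the genes were 3 higher and 2 lower, against 35.2% and 34.3% of all genes and 69.5% in either direction, with depleted libraries 1, 2 and 3 at 0.31, 0.11 and 0.22 above the mean with asparagine.

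DUSP2, known from activated lymphocytes (chromosome 2, 96143166 to 96145440, minus strand), had the largest fall of the 6. It had 7.68, 4.32 and 4.56 CPM in depleted libraries 1, 2 and 3, against 42.4, 43.6 and 37.5 CPM with asparagine. The groups lay far apart, and depleted library 1 was the highest of its group. Means were 5.52 ± 1.87 CPM in depleted cells and 41.2 ± 3.22 CPM with asparagine (SD, n = 3 each), on 141 to 1883 reads per library. On the log2 scale the change was -2.73 with an SE of 0.21 (adjusted p = 0.000284), the 21st largest decrease of all genes tested. Its transcripts are 63.9% G or C, more than 94.0% of the genes with a value. After the GC correction the log2 fold change was -2.06 (adjusted p = 2.28e-06), and depleted libraries 1, 2 and 3 then lay at -2.18, -2.05 and -1.95.

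The windows of these nuclear phosphatase genes are set side by side because DUSP2 fell while DUSP1 did not pass the test. That of DUSP1 is at chr5:172771146-172771445 and that of DUSP2 at chr2:96145391-96145690, with the same rules and capitals as above.
DUSP1: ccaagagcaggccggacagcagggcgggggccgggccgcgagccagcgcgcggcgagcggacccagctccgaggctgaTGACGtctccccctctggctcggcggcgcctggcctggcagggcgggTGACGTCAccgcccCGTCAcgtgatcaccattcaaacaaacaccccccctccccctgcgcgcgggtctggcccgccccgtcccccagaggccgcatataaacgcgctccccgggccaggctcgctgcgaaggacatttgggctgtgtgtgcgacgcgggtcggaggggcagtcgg
DUSP2: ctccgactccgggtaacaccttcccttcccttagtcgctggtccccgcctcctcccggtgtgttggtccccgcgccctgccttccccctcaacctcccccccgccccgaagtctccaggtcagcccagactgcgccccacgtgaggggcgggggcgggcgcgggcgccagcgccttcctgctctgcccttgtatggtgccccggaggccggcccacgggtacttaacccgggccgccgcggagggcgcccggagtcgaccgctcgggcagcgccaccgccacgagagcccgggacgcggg

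DUSP1 held 1 full cyclic AMP response element, at -125 to -118, and 4 short elements, 2 of them inside the full one and the others at -172 to -168 and -111 to -107. DUSP2 held none of the searched letters. The window of DUSP1 was 73.3% and that of DUSP2 75% G or C. The windows of DUSP6 and DUSP7, not printed, held none of these letters either.

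**Figure D2:**
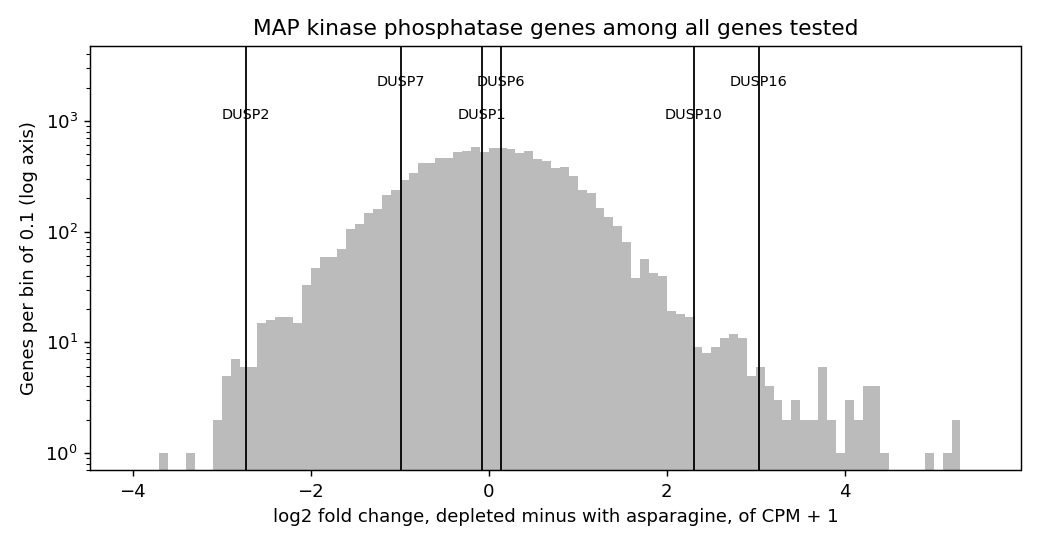
Histogram on a log axis of the log2 fold changes of all 11892 genes tested, depleted minus with asparagine, with a line at each phosphatase gene. DUSP16 at 3.04 and DUSP10 at 2.31 lie in the upper tail, DUSP2 at -2.73 in the lower tail, and DUSP7, DUSP1 and DUSP6 within the bulk.

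DUSP6 and DUSP7 encode cytoplasmic phosphatases that prefer ERK. DUSP6, a classic feedback gene of the ERK pathway (chromosome 12, 89347232 to 89353271, minus strand), stood at 12.8, 12.7 and 11.0 CPM in depleted libraries 1, 2 and 3, against 11.0, 10.3 and 11.5 CPM with asparagine. The ranges overlapped, with depleted library 3 inside the range with asparagine. Means were 12.2 ± 1.04 CPM in depleted cells and 10.9 ± 0.643 CPM with asparagine (SD, n = 3 each). On the log2 scale DUSP6 differed by 0.14 (95% interval -0.17 to 0.45, adjusted p = 0.396). Corrected for GC content it was 0.17 (adjusted p = 0.154). An exon of an antisense transcript, AC024909.2, overlaps DUSP6, and its reads could not be told apart because no strand setting is stated.

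DUSP7 (chromosome 3, 52048919 to 52056550, minus strand) had 36.8, 24.4 and 25.3 CPM in depleted libraries 1, 2 and 3, against 58.4, 60.1 and 53.5 CPM with asparagine. The groups did not overlap, and depleted library 1 lay nearest to the libraries with asparagine. Means were 28.8 ± 6.90 CPM in depleted cells and 57.3 ± 3.40 CPM with asparagine (SD, n = 3 each). On the log2 scale the change was -0.99 with an SE of 0.18 (adjusted p = 0.00511), the 1383rd largest decrease. Corrected for GC content it was -0.49 (adjusted p = 0.000387), so the size of this fall depended on the correction more than its call.

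**Figure D3:**
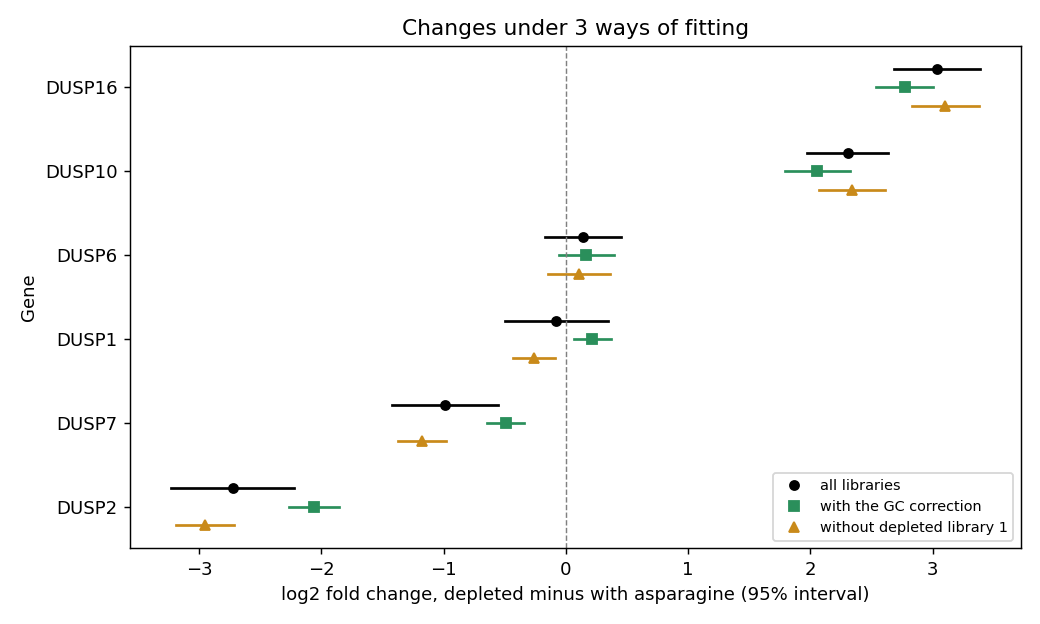
Log2 fold change with its 95% interval for each phosphatase gene, depleted minus with asparagine, from all libraries (black), with the GC correction (green) and without depleted library 1 (orange). DUSP16, DUSP10, DUSP7 and DUSP2 keep their sides of 0, whereas DUSP1 lies at -0.08, 0.21 and -0.26.

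Levels of different genes were compared as CPM per kb of the median transcript length. In depleted cells the order was DUSP1 (63.8), DUSP16 (22.0), DUSP10 (11.0), DUSP7 (9.0), DUSP6 (8.02) and DUSP2 (3.27), where the ranges of DUSP10 and DUSP7, and of DUSP7 and DUSP6, overlapped. With asparagine the order was DUSP1 (66.4), DUSP2 (24.4), DUSP7 (17.9), DUSP6 (7.21), DUSP16 (2.25) and DUSP10 (1.93), and the library ranges of DUSP16 and DUSP10 overlapped while the other neighbours did not. DUSP2 thus stood last in depleted cells and second with asparagine. The summed level of the 6 genes was 136, 107 and 109 CPM per kb in depleted libraries 1, 2 and 3, against 123, 124 and 113 CPM per kb with asparagine, so the sums overlapped. DUSP10 and DUSP16 together made up 22.4%, 32.4% and 31.2% of that sum in depleted libraries 1, 2 and 3, against 3.25%, 3.24% and 3.99% with asparagine. DUSP2 made up 3.34%, 2.40% and 2.49% in depleted libraries, against 20.4%, 20.8% and 19.6% with asparagine. The share of DUSP1 was 50.1% to 59.6% in depleted libraries and 54.9% to 55.6% with asparagine. Which transcripts were present is unknown, so levels per kb are approximate. The levels, sums and shares per kb were not corrected for GC content, and depleted libraries 2 and 3 carry the shifts with GC content given above. The part of those shifts in the orders and shares was not tested.

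**Figure D4:**
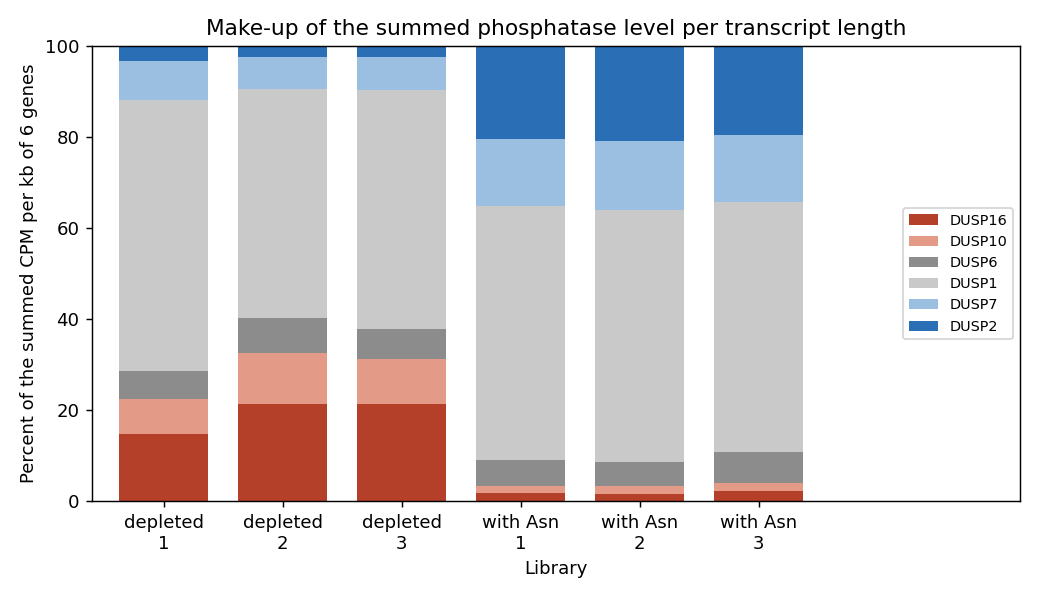
Stacked shares of each phosphatase gene in the summed CPM per kb of the 6 genes, with the 3 depleted libraries left of the 3 with asparagine. DUSP16 and DUSP10 (reds) take 22.4% to 32.4% in depleted libraries, and DUSP2 (dark blue) 19.6% to 20.8% with asparagine. Values were not corrected for GC content.

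For the gene with the largest rise and the one with the largest fall, the 3 genes with the most similar profile over the 6 libraries were named by the root mean square distance of log2 values, each set relative to the gene's mean with asparagine. Nearest to DUSP16 were the autophagy receptor gene OPTN (0.118), the thrombospondin gene THBS1 (0.125) and the zinc finger factor gene KLF6 (0.133). KLF6 averaged 311 ± 24.3 CPM in depleted cells and 39.5 ± 2.06 CPM with asparagine. OPTN averaged 17.8 ± 1.80 CPM in depleted cells and 1.39 ± 0.207 CPM with asparagine. THBS1 had means of 10.3 CPM in depleted cells and 0.428 CPM with asparagine. The log2 values are of CPM + 1, which understates changes of low genes. The distances of OPTN and THBS1, both low with asparagine, therefore depend on the added 1, and their order without it was not tested. Nearest to DUSP2 were the folate carrier gene SLC19A1 (0.0855), the fatty acid synthase gene FASN (0.0885) and the cyclin E1 gene CCNE1 (0.0991). SLC19A1 averaged 17.3 ± 6.39 CPM in depleted cells and 120 ± 8.70 CPM with asparagine. The distances are a description over libraries of 2 groups that lie apart. They were taken from values not corrected for GC content. The part of the gap of depleted library 1 in them was not tested.

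The kinases on which these phosphatases act are described first among the pathway lists. Here and below, ± is the SD over 3 libraries, the value after the means is the log2 fold change, and the last value is the same after the GC correction. The counts of each list stand beside 25.1% of all genes higher and 26.2% lower, 51.3% in either direction. After the GC correction these shares were 35.2%, 34.3% and 69.5%, and without depleted library 1 they were 40.5%, 41.3% and 81.8%. Of 11 MAP kinase genes tested, 1 was higher and 1 lower (median log2 fold change 0.30, against 0.01 over all genes tested), and after the GC correction 4 were higher and 1 lower (median 0.05). Without depleted library 1 the counts were 5 and 3, so they hung on that library. MAPK6, for the atypical kinase ERK3, had 80.4 ± 18.2 CPM in depleted cells and 37.7 ± 4.73 CPM with asparagine (log2 fold change 1.05, adjusted p = 0.00613, and 0.42 after the correction). MAPK12, for p38 gamma, had 55.2 ± 22.2 CPM in depleted cells and 105 ± 11.4 CPM with asparagine (-0.97, adjusted p = 0.0216, and -0.28 after the correction). MAPK3, the gene of ERK1, stood at -0.52 on the log2 scale, short of the threshold (adjusted p = 0.0516), and close to 0 after the correction. MAPK8 and MAPK9, the genes of JNK1 and JNK2, stood at 0.52 and 0.41, also short of it (adjusted p = 0.0868 and 0.084), and after the correction MAPK8 had -0.14 and MAPK9 0.053. MAPK14, for p38 alpha, stood at 0.01 (adjusted p = 0.947) and at -0.14 after the correction.

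Of the 7 kinases directly above them, 1 was higher and 2 lower (median -0.64), 0 and 3 after the GC correction (median -0.069), and 2 and 5 without depleted library 1. MAP2K6, an activator of p38, had 5.66 ± 0.0970 CPM in depleted cells and 10.1 ± 1.5 CPM with asparagine (-0.72, adjusted p = 0.00732, and -1.11 after the correction). Of 21 RAF and MAP3 kinase genes, 5 were higher and 4 lower (median 0.06), 8 and 6 of 20 after the correction (median 0.095), and 7 and 7 without depleted library 1. MAP3K6 fell to 0.908 ± 0.140 CPM in depleted cells, against 12.4 ± 1.41 CPM with asparagine (-2.81, adjusted p = 6.09e-05, and -2.15 after the correction). BRAF, of the ERK branch, rose to 37.4 ± 4.18 CPM, against 13.9 ± 1.84 CPM with asparagine (1.37, adjusted p = 0.000955, and 0.94 after the correction). Of 10 scaffold genes, 5 were higher and 0 lower (median 0.86), 9 and 0 after the correction (median 0.34), and 7 and 2 without depleted library 1. The 5 of 10 that passed are near the 51.3% of all genes. The scaffold genes include KSR1, which holds the ERK module, at 32.8 ± 9.23 CPM in depleted cells and 12.6 ± 0.435 CPM with asparagine (1.28, adjusted p = 0.00299, and 1.66 after the correction), and SPAG9, a JNK scaffold, at 184 ± 40.4 CPM in depleted cells and 94.6 ± 8.30 CPM with asparagine (0.93, adjusted p = 0.00751, and 0.58 after the correction).

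Genes that ERK signalling is known to drive did not move one way. Of 20 listed, 12 had values and were tested. FOS, FOSL1, CCND1, ETV4 and PHLDA1 were among those without values. Of the 12 tested, 4 were higher and 5 lower (median -0.40), 4 and 3 after the GC correction (median -0.04), and 5 and 7 without depleted library 1. The 4 that were higher encode inhibitors of the pathway, SPRY2, SPRED1, SPRED2 and SPRED3, and were named together after their values were seen. Of their relatives, SPRY4 was lower (-0.84, adjusted p = 0.00953, and -0.48 after the correction). SPRY1 did not pass (0.35, adjusted p = 0.0626, and 0.038 after the correction). SPRED3 was low, at 2.74 CPM in depleted cells and 1.20 CPM with asparagine (0.76, adjusted p = 0.00704, and 1.53 after the correction). SPRED1 changed by 1.09 (adjusted p = 0.0271), and by 0.63 after the correction. SPRY2 had 121 ± 9.53 CPM in depleted cells and 48.7 ± 1.07 CPM with asparagine (1.29, adjusted p = 0.000462, and 1.11 after the correction). SPRED2 had 62.9 ± 5.0 CPM in depleted cells and 25.2 ± 2.61 CPM with asparagine (1.29, adjusted p = 0.000749, and 1.59 after the correction). Lower were IL1B at 3.11 ± 0.693 CPM in depleted cells and 8.77 ± 0.977 CPM with asparagine (-1.26, adjusted p = 0.00167, and -1.32 after the correction), MYC, SPRY4, EGR1 and IER3, the last 3 below 5 CPM in both groups. MYC changed by -1.12 (adjusted p = 0.00166), and by -0.66 after the correction. The calls of SPRY4, EGR1 and IER3 ended with the correction (adjusted p = 0.0677, 0.291 and 0.41), and ETV5 was the other gene lower with it (-0.29, adjusted p = 0.0416). EGR1 then stood at -0.15 and IER3 at -0.12.

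On the JNK and p38 side, 6 of 17 genes were higher and 5 lower (median 0.04), 9 and 7 after the GC correction (median 0.39), and 7 and 6 without depleted library 1. The named genes that rose were JUN, the main JNK substrate among transcription factors, ATF3 and MEF2A. JUN had 215.6 ± 78.1 CPM in depleted cells and 4.46 ± 0.493 CPM with asparagine (5.26, adjusted p = 5.14e-05, and 5.63 after the correction). ATF3, a stress-induced factor, had 88.6 ± 6.29 CPM in depleted cells and 5.82 ± 0.572 CPM with asparagine (3.72, adjusted p = 3.03e-05, and 3.76 after the correction). MEF2A, a p38 substrate, had 619 ± 185 CPM in depleted cells and 207 ± 25.9 CPM with asparagine (1.53, adjusted p = 0.0031, and 1.08 after the correction). HSPB1, a small heat shock protein gene whose product is phosphorylated downstream of p38, fell to 149.7 ± 87.0 CPM in depleted cells, against 1168 ± 116 CPM with asparagine (-3.10, adjusted p = 0.000972, and -2.49 after the correction).

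**Figure D5:**
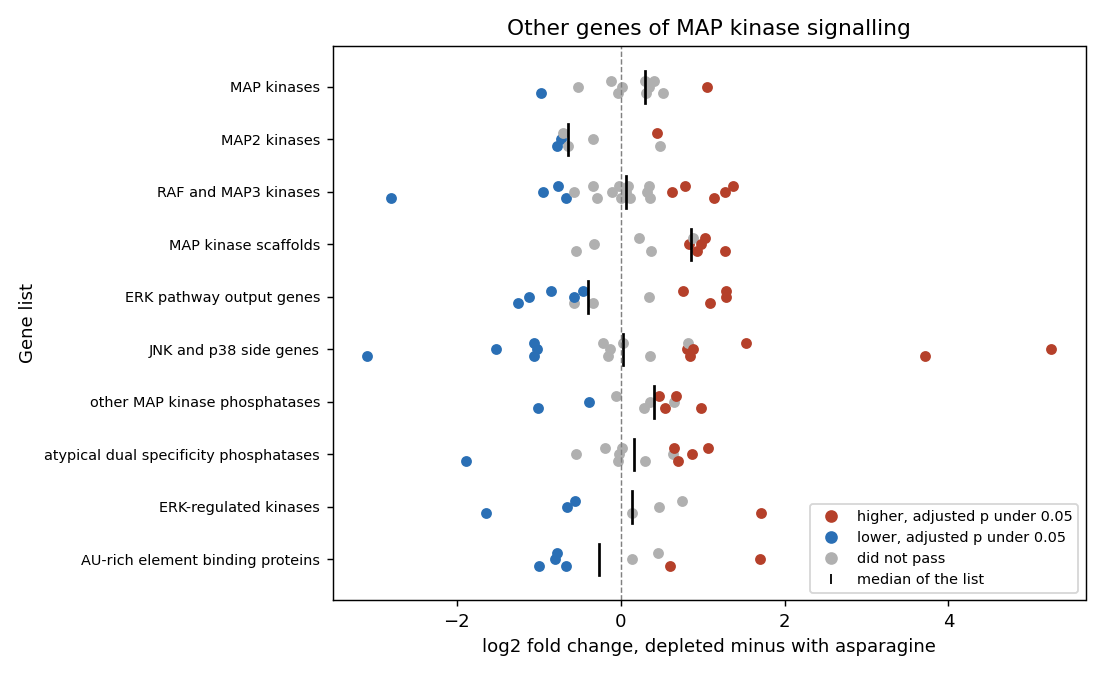
Log2 fold changes, depleted minus with asparagine, of the genes in each list of MAP kinase signalling, with genes that passed the test in red (higher) or blue (lower), others in grey, and the median of each list as a black line. The scaffold genes have 5 higher and 0 lower of 10, beside 51.3% of all genes tested that passed in either direction. JUN lies farthest to the right at 5.26.

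Other phosphatase genes were compared as neighbours of the family. Of 10 other genes for enzymes or subunits that act on MAP kinases or related to the family, 4 were higher and 2 lower (median 0.41), 3 and 2 after the GC correction (median 0.17), and 7 and 2 without depleted library 1. STYXL1, a catalytically inactive relative, rose to 64.0 ± 6.22 CPM in depleted cells, against 31.7 ± 0.910 CPM with asparagine (0.99, adjusted p = 0.00139, and 1.08 after the correction). PPP2R1A, the scaffold subunit of protein phosphatase 2A, fell to 225 ± 52.6 CPM, against 449 ± 41.4 CPM with asparagine (-1.01, adjusted p = 0.00457, and -0.67 after the correction). Of 12 atypical dual specificity phosphatase genes, which lack the kinase-binding domain, 4 were higher and 1 lower (median 0.16), 7 and 1 after the correction (median 0.31), and 5 and 3 without depleted library 1. The lower one, DUSP23, had 26.2, 9.14 and 9.46 CPM in depleted libraries 1, 2 and 3, against 55.2, 53.4 and 47.2 CPM with asparagine (-1.89, adjusted p = 0.007, and -1.24 after the correction). Depleted library 1 again lay nearest to the libraries with asparagine. DUSP11, which acts on RNA, had 47.3 ± 7.17 CPM in depleted cells and 25.3 ± 1.58 CPM with asparagine (0.87, adjusted p = 0.00454, and 0.42 after the correction).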

How the data were processed

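The deposited table held a normalized CPM signal for 11911 gene symbols in 6 columns. The columns summed to 952458, 918783 and 927332 in depleted libraries 1, 2 and 3. In libraries 1, 2 and 3 with asparagine they summed to 1029261, 1031234 and 1018766, so the scaling was not to library size alone. The tools were STAR, featureCounts from Subread and FastQC on GRCh38, per the submitters' processing notes. The sources used here give no versions, annotation, strand setting, scaling or filter on low values. Columns were matched to samples by arm and replicate number. Nothing states separate cultures, so p-values set the group difference against a variation between libraries that may be only technical. In each column all values were whole multiples of 1 step (tolerance 1e-06 of a read), which gave the reads behind them. No count model was used.

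The 11892 genes that reached 1 CPM in 3 or more libraries were fitted as log2(CPM + 1) with limma 3.58.1 in R 4.3.3, with the group as the only term and an intensity trend. Tests were two-sided with Benjamini-Hochberg adjustment at 0.05. A log2 fold change understates changes of low genes. Fold values are ratios of mean CPM. Gene lists are described by counts and medians. Named list genes were taken from up to 4 per list with the largest change among those that passed and reached 5 CPM in the higher group. Not all of these are given, and others were named after their values were seen. Members and lists were chosen with earlier results of these data known. GC content, length and positions came from GENCODE 29 (11363 genes with a value), and promoter windows from RefSeq. The GC correction removed a lowess trend (span 0.3) from each library. Protein sequences were not used here. The fit was also run on simulated data in which genes varied independently. Those data lack the GC-linked gap of depleted library 1, so the run cannot give error rates under that gap. The alternatives tried are given with their effect in the closing section.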

Additional observations from a re-analysis of the deposited data

How the results depend on the processing

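Over 20 alternative fits, DUSP16, DUSP10, DUSP2 and DUSP7 kept their direction and an adjusted p under 0.05 in each, with log2 fold changes of 2.50 to 3.23, 1.87 to 2.46, -2.95 to -2.00 and -1.17 to -0.46, and adjusted p-values of at most 0.00137, 0.00232, 0.00412 and 0.0299. The fit to depleted library 1 alone, 1 of the 20, assumes that the lone library varies like those with asparagine and is no replicate check. At a threshold of 0.01 the calls held with all libraries and no other change, but that of DUSP7 held in 15 of the 20 alternatives. DUSP6 passed in none (adjusted p 0.154 to 0.879). DUSP1 passed as lower without depleted library 1 and as higher with the GC correction, alone or with depleted library 1 left out. Its log2 fold change was 0.027 with quantile normalization, 0.21 with the GC correction, 0.16 with that correction and depleted library 1 left out, and 0.29 from depleted library 1 alone. With each library left out in turn it ranged from -0.26 to 0.035. The counts over all genes, 2987 higher and 3116 lower, ranged from 1728 to 4812 and from 1814 to 4913 with a library left out (highest without depleted library 1, lowest without library 2 with asparagine), and were 1612 and 1703 at a threshold of 0.01.

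With the replicate number as a block, 2824 genes were higher and 2989 lower, and 2 and 2 of the phosphatase genes. The block changed no call of a phosphatase gene. Deviations of same-numbered libraries from their group means correlated across genes at 0.083, -0.65 and 0.69, and depleted library 1 correlated best with library 2 of the other group. The deviations of the depleted libraries mostly follow the gap of library 1, so these values cannot decide whether the numbers pair the samples. The main fit used no pairing. Of the counts and medians of the gene lists under the alternatives, 477 stayed within 1.5 times (counts) or 1 SD (medians) and 143 moved further. The causes were not tested. The correction with depleted library 1 left out, depleted library 1 alone and the genes with a GC value alone were chosen after seeing the data. For DUSP6 the 95% interval of -0.17 to 0.45 is the limit on its change.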

Other observations

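The proteins that bind AU-rich elements set the lifetime of many short-lived transcripts. Of 8 such genes tested, 2 were higher and 4 lower (median log2 fold change -0.26, against 0.01 over all genes tested), 2 and 5 after the GC correction (median -0.43), and 4 and 4 without depleted library 1. The 6 of 8 that passed stand beside 51.3% of all genes. ZFP36L1, which promotes decay of such transcripts, rose to 880 ± 33.4 CPM in depleted cells, against 270 ± 24.4 CPM with asparagine (SD, n = 3 each, log2 fold change 1.71, limma adjusted p = 0.000171, and 2.30 after the correction), and its 3 depleted libraries stood at 918, 860 and 861 CPM. Its relative ZFP36L2 fell to 138 ± 11.1 CPM in depleted cells, against 240 ± 21.2 CPM with asparagine (-0.80, adjusted p = 0.00294, and -0.54 after the correction), and KHSRP to 248 ± 53.0 CPM in depleted cells, against 487 ± 29.7 CPM with asparagine (-0.99, adjusted p = 0.00353, and -0.45 after the correction).

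Kinases that ERK or p38 switch on went in both directions. Of 7 tested, 1 was higher and 3 lower (median 0.13), 3 and 2 after the GC correction (median 0.021), and 3 and 3 without depleted library 1. The 4 of 7 that passed stand beside the same 51.3%. RPS6KA2, of the RSK family, rose to 18.2 ± 3.95 CPM in depleted cells, against 4.79 ± 0.390 CPM with asparagine (1.71, adjusted p = 0.000671, and 2.0 after the correction). RPS6KA4, of the MSK family, fell to 56.1 ± 25.3 CPM in depleted cells, against 167 ± 13.6 CPM with asparagine (-1.64, adjusted p = 0.00411, and -0.95 after the correction), with 85.3, 41.5 and 41.5 CPM in depleted libraries 1, 2 and 3. MKNK2 was lower (-0.66, adjusted p = 0.0291) and lay at -0.022 after the GC correction, where it did not pass (adjusted p = 0.778).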
